A study of Mus musculus with 12 samples.

Results

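Livers of C57BL/6 mice labelled wild type were compared after 3 months on the HFCF diet and after 3 months on normal chow. The labels do not spell out the name HFCF, and the series concerns experimental nonalcoholic steatohepatitis, a disease of fat storage and inflammation in the liver. The comparison used 6 of the 12 samples of the series, taken by their titles: 3 HFCF livers and 3 chow livers, all from mice 6 months old. The other 6 samples, 3 HFCF and 3 chow livers from mice fed for 1 month and 3 months old, served to estimate the spread and to compare the effect of the diet between the months. The groups carry no named mutation or drug, and each group held 3 biological replicates per the series' design text.

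The liver turns surplus nitrogen into urea, makes cholesterol, fat and most plasma proteins, and clears lipid, hormones and foreign compounds. Hepatocytes supply most of its RNA, and macrophages, stellate cells, endothelial cells and bile duct cells supply the rest. In steatohepatitis, hepatocytes hold lipid droplets, macrophages gather, and stellate cells lay down collagen. Because whole liver was sequenced, fewer cells of a type and less RNA per cell cannot be told apart.

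Total RNA was depleted of ribosomal RNA and sequenced as stranded libraries, which held 18691611, 20277572 and 14047652 counts over genes in the HFCF livers and 17982271, 15039339 and 13733485 in the chow livers. Levels are CPM, counts scaled to the effective size of each library. Each change is the log2 fold change of HFCF over chow. The value after ± beside a change is an SE worked back from that change and the statistic of edgeR's quasi-likelihood test. edgeR gives no SE for this test, so the value restates the test result and is no separate estimate of spread. Adjusted p-values are from that test with Benjamini-Hochberg adjustment over all genes tested, and values under 0.05 passed. By FPKM, which is scaled per length, the hepatocyte gene Alb, which encodes albumin, had the highest mean, at 20978 in the HFCF and 26196 in the chow livers. The fat cell gene Adipoq had 2, 0 and 1 counts in HFCF and 1, 1 and 0 counts in chow replicates 1 to 3.

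Of 14725 genes tested, 2802 passed (19%), 1697 higher in HFCF (11.5%) and 1105 lower (7.5%). Among them 797 rose and 219 fell at least 2-fold, and 201 rose and 46 fell at least 4-fold. The 3 HFCF libraries did not overlap the 3 chow libraries in 2652 of the genes that passed. Over all 14725 genes tested, whether they passed or not, the groups did not overlap in 5420. Counts of list members below are to be read beside the 11.5% higher and 7.5% lower over all genes tested. Calls were more frequent and leaned further downward among abundant genes: over 1000 CPM, 10 of 124 genes were higher and 31 lower. When libraries were scaled by their totals alone, the median of all genes moved to 0.127 (log2), against -0.00423 with the scaling used here, and higher genes made up 81.4% of the calls, against 60.6%. Without HFCF replicate 1, HFCF replicate 2, chow replicate 2 or chow replicate 3 the count was 1478, 1255, 1382 and 1775.

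**Figure D1:**
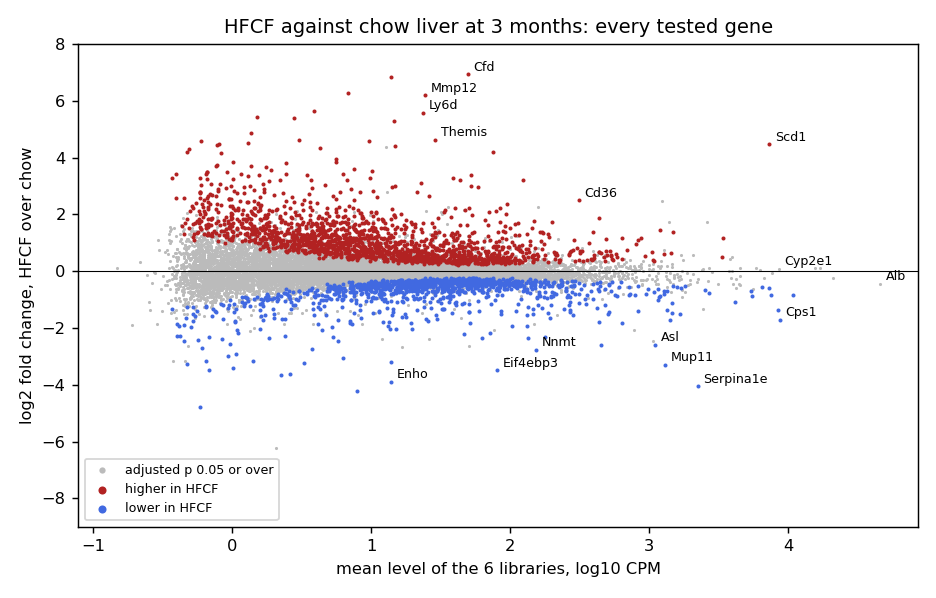
Log2 fold change of HFCF over chow (vertical) against the mean level of the 6 livers of 3 months (horizontal, log10 CPM) for every tested gene; red points passed as higher in HFCF, blue points as lower, and grey points did not pass. Scd1 stands alone among the abundant genes at 4.47, and Cps1 is the most abundant of the labelled genes that fell.

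HFCF replicate 3 stood nearer to the chow livers than the other HFCF livers did. On the first principal component of log2 CPM in the 6 livers, which held 63.4% of the variance, HFCF replicates 1, 2 and 3 lay at -49.8, -53.5 and -12.4, against 25.8, 46.2 and 43.7 for chow replicates 1, 2 and 3. Replicate 3 was the lowest HFCF library in 1290 of the 1697 higher genes and the highest in 701 of the 1105 lower genes. Over all 14725 genes tested it was the lowest in 6161. Without it 3633 genes passed. Its median level relative to the mean of HFCF replicates 1 and 2 was -0.41 (log2) over the higher genes, 0.16 over the lower genes and -0.01 over all genes. For several gene groups below, the value of this library is given beside those of the others.

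Among genes with a mean of at least 20 CPM whose groups did not overlap, the 8 largest rises were those of Cfd, Mmp12, Ly6d, Themis, Scd1, Serpina7, Anxa2 and Osbpl3. The 8 largest falls were those of Serpina1e, Eif4ebp3, Mup11, Nnmt, Asl, Got1, Lpin1 and Msmo1. Serpina7, which encodes thyroxine-binding globulin, had 175, 200.1 and 56.0 CPM in the HFCF livers, against 8.83, 7.19 and 7.64 CPM in the chow livers (4.19 ± 0.56, adjusted p = 0.002). Osbpl3, an oxysterol-binding protein gene, had 86.4, 95.1 and 30.2 CPM in the HFCF livers, against 7.27, 5.49 and 9.29 CPM in the chow livers (3.27 ± 0.44, adjusted p = 0.00178). These genes were chosen for lack of overlap between the groups, so that is not a result. In both genes the lowest HFCF value was in replicate 3, and the other genes are described with their groups.

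Genes of the urea cycle and of amino acid breakdown fell. Of 36 measured, 25 were lower and 1 was higher in HFCF, and the median change was -0.97. Asl, which encodes argininosuccinate lyase of the urea cycle, had 229, 254 and 460.0 CPM in the HFCF livers, against 1834, 2010.5 and 1883 CPM in the chow livers. The groups lay far apart, and the change was -2.60 ± 0.27 (edgeR adjusted p = 0.000199). Cps1, the enzyme that admits ammonia to the cycle and one of the most abundant transcripts of the liver, had 3066, 3046 and 6116 CPM in the HFCF livers, against 12448, 15545 and 12335 CPM in the chow livers (-1.72 ± 0.29, adjusted p = 0.00198). In both genes replicate 3 lay between the other HFCF livers and chow. Arg1, the arginase that releases urea, had 694, 757 and 1146 CPM in the HFCF livers, against 2406, 2722 and 2285 CPM in the chow livers (-1.51 ± 0.25, adjusted p = 0.00168). The groups did not overlap.

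Other genes of nitrogen handling moved the same way. Got1, the cytosolic aspartate aminotransferase, had 79.7, 89.4 and 217 CPM in the HFCF livers, against 699, 882 and 729 CPM in the chow livers (-2.58 ± 0.41, adjusted p = 0.00272). Bhmt, which remethylates homocysteine with betaine, had 655, 793 and 872 CPM in the HFCF livers, against 1606, 2638 and 2184 CPM in the chow livers (-1.47 ± 0.24, adjusted p = 0.00161). Here the 3 HFCF livers lay close together below all chow livers. Hal, the histidine ammonia-lyase, fell by 1.45 ± 0.25 (edgeR adjusted p = 0.00257), and Nnmt, which methylates nicotinamide, changed by -2.78 ± 0.41 (edgeR adjusted p = 0.00237). Glul, which fixes ammonia into glutamine in hepatocytes around the central vein, was the 1 member that was higher, with 1458, 1325 and 1119 CPM in the HFCF livers, against 715, 839 and 882 CPM in the chow livers (0.68 ± 0.18, adjusted p = 0.0209). That call was lost without HFCF replicate 1, HFCF replicate 2, chow replicate 1 or chow replicate 2, where the adjusted p reached 0.0853. Among members that did not pass, Oat, the ornithine aminotransferase, had a log2 fold change of -0.26 ± 0.25 (edgeR adjusted p = 0.487), and it passed without HFCF replicate 3.

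The list as a whole lay at -1.15, -1.20 and -0.62 in HFCF replicates 1, 2 and 3, as the median of log2 CPM minus the chow mean, and at 0.03, 0.01 and -0.05 in chow replicates 1, 2 and 3. The number lower was 16 without HFCF replicate 1 or HFCF replicate 2. Genes that mark liver zones were mixed: of 25, 5 were lower and 2 higher, with a median of -0.22. The lower ones included the periportal genes Arg1, Hal, Pck1 and Sds, and the higher ones were Glul and Gulo. Sds, the serine dehydratase, had 87.4, 87.1 and 116 CPM in the HFCF livers, against 282, 216 and 221 CPM in the chow livers (-1.31 ± 0.30, adjusted p = 0.0138), a call lost without HFCF replicate 1 or HFCF replicate 2. The numbers of zone genes lower and higher were 3 without HFCF replicate 1 or HFCF replicate 2 and 8 without HFCF replicate 3, and 0 without HFCF replicate 1, HFCF replicate 2, chow replicate 1 or chow replicate 2.

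Transcripts of cholesterol synthesis genes were lower along the pathway. Of 24 genes of the pathway and its regulation 18 were lower and none higher, with a median of -1.22, and 16 to 18 were lower without any 1 of the 6 libraries. Msmo1, a demethylase of the late pathway, had 21.1, 21.8 and 18.5 CPM in the HFCF livers, against 101, 83.3 and 128 CPM in the chow livers (-2.35 ± 0.33, adjusted p = 0.00189). Lss, which closes the sterol ring, had 14.6, 14.3 and 13.7 CPM in the HFCF livers, against 35.1, 30.2 and 36.6 CPM in the chow livers (-1.26 ± 0.14, adjusted p = 0.000265). The 3 HFCF livers were nearly alike and lay below every chow liver in both genes. Dhcr7, which makes cholesterol in the last step, had 6.83, 6.85 and 4.62 CPM in the HFCF livers, against 16.4, 19.1 and 14.1 CPM in the chow livers (-1.42 ± 0.18, adjusted p = 0.000435). Pmvk, a kinase of the mevalonate segment, changed by -1.03 ± 0.14 (edgeR adjusted p = 0.000591), and Srebf2, the transcription factor that drives the pathway, by -1.07 ± 0.13 (edgeR adjusted p = 0.000427).

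HFCF replicate 3 did not stand apart in this pathway: the median over the list was -1.24, -1.16 and -1.19 in HFCF replicates 1, 2 and 3, against 0.06, -0.22 and 0.12 in the chow livers. At 1 month 14 of the 24 were lower, with a median of -0.83. A list of cholesterol handling held exporters, esterifying and trafficking genes, uptake genes and the oxysterol receptors LXR with some of their targets. Of its 17 genes 9 were higher and 1 lower, with a median of 0.33. Abcg5, which with Abcg8 forms the pump that sends sterol into bile, had 179.6, 175 and 207 CPM in the HFCF livers, against 98.5, 65.7 and 64.1 CPM in the chow livers (1.30 ± 0.15, adjusted p = 0.000297). Abcg8 had 183, 172 and 207 CPM in the HFCF livers, against 119, 86.6 and 65.3 CPM in the chow livers (1.05 ± 0.17, adjusted p = 0.00146). All HFCF livers lay above all chow livers in both genes, whose annotated exons overlap. Abcg1, an exporter to lipoprotein particles, changed by 1.43 ± 0.19 (edgeR adjusted p = 0.000591), and Abca1 did not pass (0.33 ± 0.13, adjusted p = 0.0882). The 1 lower member was Lcat, which esterifies cholesterol in plasma (-0.39 ± 0.13, adjusted p = 0.0494), and it was lost without HFCF replicate 1, HFCF replicate 2, chow replicate 1, chow replicate 2 or chow replicate 3.

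**Figure D2:**
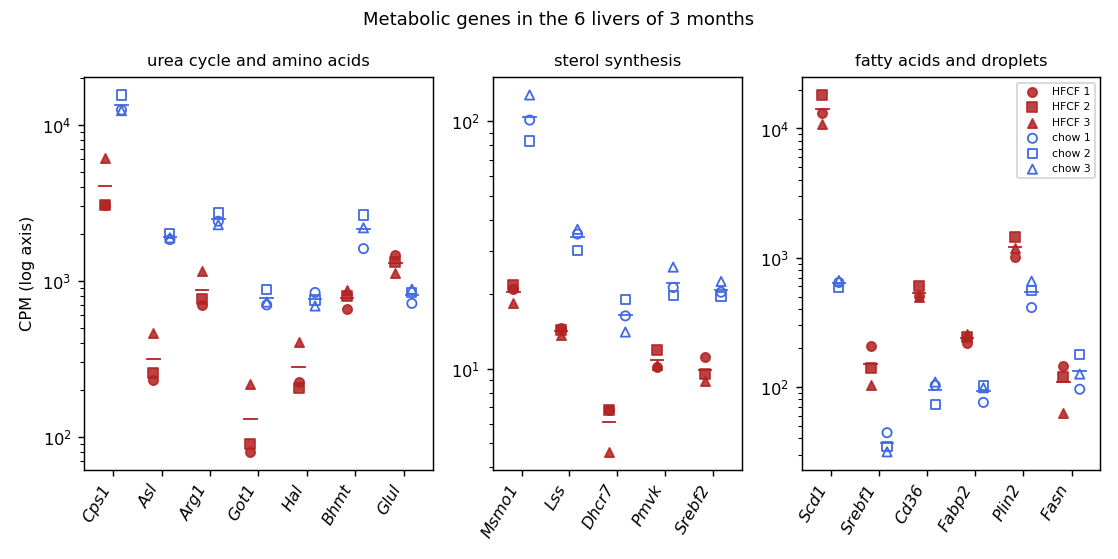
CPM (log axis) of metabolic genes in each liver of 3 months: filled red symbols are HFCF livers, open blue symbols chow livers, the symbol shape gives the replicate number, and lines are group means. Asl and Got1 lie lower in HFCF with replicate 3 (triangle) nearest chow, the sterol genes lie lower in all 3 HFCF livers alike, and Scd1 and Cd36 lie higher in all of them.

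Genes of fat synthesis did not move as 1 block. Of 24 genes of fatty acid and triglyceride synthesis 8 were higher and 4 lower, with a median of 0.21. Scd1, the enzyme that puts a double bond into saturated fatty acids, had 13238, 18166 and 10788 CPM in the HFCF livers, against 644, 589 and 666 CPM in the chow livers (4.47 ± 0.39, adjusted p = 0.000152). Its lowest HFCF liver was far above every chow liver. Scd2, a second desaturase, had 19.6, 19.4 and 8.69 CPM in the HFCF livers, against 5.76, 4.97 and 3.97 CPM in the chow livers (1.70 ± 0.27, adjusted p = 0.00161). Srebf1, the transcription factor of fat synthesis, had 206, 141 and 104 CPM in the HFCF livers, against 44.3, 34.8 and 31.5 CPM in the chow livers (2.03 ± 0.37, adjusted p = 0.00622). Mogat1, which acylates monoacylglycerol, changed by 2.66 ± 0.42 (edgeR adjusted p = 0.00173). Srebf1 shares exon sequence with Rai1 on the other strand, so its counts are less certain.

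The genes that make cytosolic acetyl-CoA lay lower. Acly had 107, 103 and 99.6 CPM in the HFCF livers, against 153, 158 and 167 CPM in the chow livers (-0.63 ± 0.08, adjusted p = 0.000522), and Acss2 changed by -0.47 ± 0.09 (edgeR adjusted p = 0.00384). Dgat1, which completes triglyceride, changed by -0.53 ± 0.10 (edgeR adjusted p = 0.00345). Lpin1, a phosphatidate phosphatase, had 39.6, 45.8 and 45.6 CPM in the HFCF livers, against 157, 235 and 279 CPM in the chow livers (-2.36 ± 0.44, adjusted p = 0.00608). None of these 4 calls was lost by leaving out 1 of the 6 libraries. Fasn, the fatty acid synthase, had 145, 120.5 and 63.3 CPM in the HFCF livers, against 96.0, 179 and 126 CPM in the chow livers, the groups overlapped, and it did not pass (-0.28 ± 0.36, adjusted p = 0.634). The number of higher genes in this list was 5 without HFCF replicate 1, HFCF replicate 2 or chow replicate 2 and 4 without chow replicate 1 or chow replicate 3.

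Lipid uptake and droplet genes, many of them targets of the fat receptor PPAR-gamma, rose: 15 of 22 were higher and none lower, with a median of 1.10. Cd36, the fatty acid transporter, had 506, 604 and 492 CPM in the HFCF livers, against 103, 73.1 and 109 CPM in the chow livers (2.49 ± 0.24, adjusted p = 0.000179). Fabp2, an intestinal type of fatty acid binding protein, had 217, 244 and 256 CPM in the HFCF livers, against 75.9, 102 and 98.5 CPM in the chow livers (1.37 ± 0.14, adjusted p = 0.000152). In both genes replicate 3 lay close to the other HFCF livers. Plin2, a coat protein of lipid droplets, had 1013, 1439 and 1186 CPM in the HFCF livers, against 412, 554 and 658 CPM in the chow livers (1.16 ± 0.21, adjusted p = 0.00242). Pparg itself had 35.9, 36.8 and 19.99 CPM in the HFCF livers, against 10.4, 9.28 and 11.7 CPM in the chow livers (1.57 ± 0.24, adjusted p = 0.00179). Lpl, the lipoprotein lipase, changed by 2.22 ± 0.28 (edgeR adjusted p = 0.000922), with its lowest HFCF value in replicate 3. The list lay at 0.98, 1.38 and 0.87 in HFCF replicates 1, 2 and 3, against -0.03, -0.11 and 0.20 in the chow livers.

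Of 35 genes of fatty acid oxidation, many under the receptor PPAR-alpha, 5 were higher and none lower, with a median of 0.26. Over all genes tested 11.5% were higher and 7.5% lower. Fabp1, the main fatty acid binding protein of the liver, had 4698, 4514 and 4982 CPM in the HFCF livers, against 1359, 2151 and 2793 CPM in the chow livers (1.17 ± 0.26, adjusted p = 0.00849). Vnn1, a pantetheinase, changed by 1.72 ± 0.31 (edgeR adjusted p = 0.00496), and Bdh1, of ketone body metabolism, by 0.73 ± 0.14 (edgeR adjusted p = 0.00442). Ppara, the gene of the receptor, did not pass (0.48 ± 0.16, adjusted p = 0.0504). Without HFCF replicate 3 the list had 5 higher and 3 lower, and 1 was lower without chow replicate 1. Of 40 nuclear genes of the respiratory chain none passed, at a median of -0.07, which was 0.06 when libraries were scaled by total counts; 1 was lower without HFCF replicate 3.

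Of 23 bile acid genes 6 were lower and 2 higher (median -0.18, and -0.06 with scaling by total counts). The list lay at -0.18, -0.27 and 0.03 in HFCF replicates 1, 2 and 3, against -0.04, -0.01 and 0.04 in chow. Cyp8b1, which sets the share of cholic acid, had 369, 388 and 600.4 CPM in the HFCF livers, against 936, 1187 and 1498 CPM in the chow livers (-1.42 ± 0.22, adjusted p = 0.00126). The HFCF livers lay below the chow livers, and replicate 3 was the highest of them. Cyp7a1, the rate-limiting enzyme, had 392.00, 313 and 396 CPM in the HFCF livers, against 446, 595 and 712 CPM in the chow livers and did not pass (-0.67 ± 0.36, adjusted p = 0.227). The number lower was 1 without HFCF replicate 1 or HFCF replicate 2, 2 without chow replicate 2 and 3 without chow replicate 3, and neither of the 2 higher calls, Abcb11 (0.35 ± 0.11, adjusted p = 0.0335) and Hsd3b7 (0.41 ± 0.12, adjusted p = 0.0296), held without each library. Among 18 genes of apolipoproteins and lipoprotein assembly 5 were lower and 2 higher (median -0.24). Apom, which carries sphingosine-1-phosphate on high-density lipoprotein, had 120.3, 102 and 137 CPM in the HFCF livers, against 255, 274 and 291 CPM in the chow livers (-1.19 ± 0.13, adjusted p = 0.000218), and Apoc2, the cofactor of lipoprotein lipase, was higher (0.99 ± 0.19, adjusted p = 0.00417). Apoa1 was lower (-0.57 ± 0.17, adjusted p = 0.0295) unless HFCF replicate 1, HFCF replicate 2, chow replicate 2 or chow replicate 3 was left out, and Apob did not pass (-0.24 ± 0.18, adjusted p = 0.373). The number lower was 1 without HFCF replicate 1, HFCF replicate 2, chow replicate 2 or chow replicate 3 and 3 without chow replicate 1, and the number higher 1 without HFCF replicate 1, HFCF replicate 3, chow replicate 1 or chow replicate 3.

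Targets of the stress regulator NRF2 and glutathione genes rose in part: 13 of 31 were higher and 1 was lower, with a median of 0.36. Gclc, which makes the first bond of glutathione, had 384, 434 and 359 CPM in the HFCF livers, against 202, 162 and 188 CPM in the chow livers (1.09 ± 0.15, adjusted p = 0.000608). Slc7a11, the cystine importer, had 42, 41 and 13 counts in the HFCF livers, against 1, 1 and 1 in the chow livers (edgeR adjusted p = 0.000522). Hmox1, the haem oxygenase, had 41.6, 35.6 and 35.7 CPM in the HFCF livers, against 20.95, 14.6 and 15.9 CPM in the chow livers (1.13 ± 0.19, adjusted p = 0.00244). The 1 lower member, Gstp1, a glutathione transferase, had the smallest p of all genes tested, with 92.7, 102 and 86.7 CPM in the HFCF livers, against 261, 289.8 and 328 CPM in the chow livers (-1.64 ± 0.13, adjusted p = 5.32e-05). Mouse Gstp genes are near-identical copies, so the counts of Gstp1 may be shared among them. The number higher was 8 without HFCF replicate 1, chow replicate 1 or chow replicate 3 and 7 without HFCF replicate 2 or chow replicate 2.

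Of 34 xenobiotic genes 7 were lower and 4 higher, beside 7.5% lower and 11.5% higher over all genes tested. The median was -0.05, and 0.08 with scaling by total counts. Cyp3a13 (-0.90 ± 0.14, adjusted p = 0.00124) and Por, the reductase that feeds the cytochromes (-0.70 ± 0.16, adjusted p = 0.00912), were lower, and Cyp2b9 had 20.7, 15.0 and 4.89 CPM in the HFCF livers, against 0.269, 0.0654 and 0.150 CPM in the chow livers (6.28 ± 0.81, adjusted p = 0.00108). Cyp3a11 did not pass (-0.59 ± 0.39, adjusted p = 0.329). The number lower was 4 without HFCF replicate 1 or HFCF replicate 2, and the number higher 2 without HFCF replicate 2 or chow replicate 2. Among 30 genes of growth hormone signalling and of its targets that differ between the sexes, 6 were lower and 4 higher, with a median of -0.58. Serpina1e, an alpha-1-antitrypsin copy, had 207, 89.9 and 469 CPM in the HFCF livers, against 3070.5, 4518 and 5082 CPM in the chow livers (-4.05 ± 0.55, adjusted p = 0.00139), and Mup11, a urinary protein gene, had 144, 85.3 and 501 CPM in the HFCF livers, against 1771, 2239.8 and 3112 CPM in the chow livers (-3.29 ± 0.77, adjusted p = 0.0186). Replicate 3 lay well above the other HFCF livers in both, still below the chow livers, and the Mup11 call was lost without HFCF replicate 1, HFCF replicate 2, chow replicate 2 or chow replicate 3. Serpina1, Mup and Cyp2 genes belong to families of near-identical copies, so their counts are less certain. Both counts of this list were 2 without HFCF replicate 1, HFCF replicate 2, chow replicate 2 or chow replicate 3.

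Plasma carrier genes leaned lower, and acute phase genes did so less clearly. Of 38 genes of plasma carriers and coagulation 11 were lower and 4 higher (median -0.27). Of 28 acute phase genes 7 were lower and 3 higher (median -0.16, and -0.03 with scaling by total counts). The acute phase list lay at -0.08, -0.13 and -0.20 in HFCF replicates 1, 2 and 3. The chow livers lay at 0.27, -0.23 and 0.01, so chow replicate 2 was below every HFCF liver. Of 28 complement genes 6 were higher and 2 lower (median 0.03). Serpinf2, the plasmin inhibitor, had 492, 453 and 618 CPM in the HFCF livers, against 941, 970.1 and 855 CPM in the chow livers (-0.82 ± 0.14, adjusted p = 0.00228). Ahsg, which encodes fetuin-A, had 4708, 4892 and 6638 CPM in the HFCF livers, against 9419, 10480.0 and 9386 CPM in the chow livers (-0.85 ± 0.18, adjusted p = 0.00656). Serpina3n fell (-1.20 ± 0.21, adjusted p = 0.0026), as did Il6ra, the receptor of the acute phase signal interleukin-6, with 22.4, 23.6 and 29.5 CPM in the HFCF livers, against 51.3, 55.2 and 57.5 CPM in the chow livers (-1.12 ± 0.14, adjusted p = 0.000427). The higher coagulation genes included Plau, a plasminogen activator (2.04 ± 0.40, adjusted p = 0.00496), and Thbs1 (2.50 ± 0.50, adjusted p = 0.00733). Alb had 36298, 36042 and 44912 CPM in the HFCF livers, against 53205, 52372 and 53948 CPM in the chow livers and did not pass (-0.44 ± 0.21, adjusted p = 0.16), nor did Saa1, which ranged widely within chow (-1.54 ± 1.42, adjusted p = 0.488).

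Cfd, the complement protease adipsin, had 92.2, 60.7 and 145 CPM in the HFCF livers, against 1.13, 0.261 and 0.974 CPM in the chow livers (6.93 ± 1.47, adjusted p = 0.0145), one of the largest rises. Its highest value was in replicate 3, and the call was lost without chow replicate 2 or chow replicate 3. Of 10 fat cell markers 5 were tested and 3 were higher, Cfd, Pparg and Fabp4 (2.20 ± 0.53, adjusted p = 0.0207), and the count was 1 without chow replicate 2 or chow replicate 3. The summed level of the 5 was 2429, 1915 and 2473 CPM in HFCF replicates 1, 2 and 3, against 345, 243 and 645 in chow, most of it Car3, which did not pass (2.47 ± 0.80, adjusted p = 0.0631). The part of fat cells in these values was not tested, and Adipoq was at 0 to 2 counts. Without 1 library the number of lower coagulation genes was 7 without HFCF replicate 1 or chow replicate 1, 4 without HFCF replicate 2 and 6 without chow replicate 2 or chow replicate 3. The number of lower acute phase genes was 4 without HFCF replicate 1, chow replicate 1 or chow replicate 3, 2 without HFCF replicate 2 and 3 without chow replicate 2. The number of higher complement genes was 2 without HFCF replicate 1 or HFCF replicate 2 and 1 without chow replicate 2 or chow replicate 3, and the number lower 0 without HFCF replicate 1, chow replicate 2 or chow replicate 3 and 1 without HFCF replicate 2.

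Genes of sugar metabolism and insulin signalling split: of 37, 8 were higher and 6 lower (median 0.04). Pkm, the pyruvate kinase of cells other than hepatocytes, had 28.8, 32.8 and 18.5 CPM in the HFCF livers, against 10.9, 7.12 and 8.92 CPM in the chow livers (1.57 ± 0.23, adjusted p = 0.00132), and Hk2 was higher (1.71 ± 0.37, adjusted p = 0.0083), while Pck1, the gate of glucose synthesis, had 2209, 2252 and 3494 CPM in the HFCF livers, against 6837, 4625 and 5382 CPM in the chow livers (-1.08 ± 0.22, adjusted p = 0.00433) and Pfkfb1 was lower (-0.91 ± 0.14, adjusted p = 0.00129). The number higher was 3 without HFCF replicate 1 or chow replicate 3 and 2 without HFCF replicate 2 or chow replicate 2, and the number lower 3 without HFCF replicate 1 or chow replicate 2 and 2 without HFCF replicate 2. Of 30 hepatocyte regulators and Wnt pathway genes 6 were lower and none higher (median -0.13), among them Foxa3, with 36.7, 34.5 and 42.2 CPM in the HFCF livers, against 63.8, 82.3 and 90.7 CPM in the chow livers (-1.06 ± 0.15, adjusted p = 0.000725), the oestrogen receptor Esr1 (-1.05 ± 0.17, adjusted p = 0.00152) and Hnf4a (-0.55 ± 0.13, adjusted p = 0.00871). Hnf4a was lost without HFCF replicate 2, and 3 regulators were lower without HFCF replicate 2 or chow replicate 2. Of 19 clock genes 2 were lower and none higher, Clock (-0.52 ± 0.09, adjusted p = 0.00179) and Arntl (-1.66 ± 0.32, adjusted p = 0.00537), at a median of -0.00459, which was 0.12 when libraries were scaled by total counts. Over all genes tested 7.5% were lower and 11.5% higher. Clock genes higher numbered 1 without HFCF replicate 3 and 3 without chow replicate 1.

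In the list of endoplasmic reticulum and integrated stress genes, 33 were measured, and 4 were higher and 3 lower. Over all genes tested 11.5% were higher and 7.5% lower. The median was -0.09, and 0.04 when scaled by total counts. The number higher fell to 0 without HFCF replicate 1, HFCF replicate 2, chow replicate 2 or chow replicate 3. The number lower was 1 without HFCF replicate 1, HFCF replicate 2, chow replicate 2 or chow replicate 3 and 6 without chow replicate 1. Asns, the asparagine synthetase, had 1.08, 2.22 and 0.483 CPM in the HFCF livers, against 8.73, 13.1 and 12.3 CPM in the chow livers (-3.07 ± 0.80, adjusted p = 0.0295), lost without HFCF replicate 1, HFCF replicate 2, HFCF replicate 3, chow replicate 2 or chow replicate 3. Eif4ebp3, an inhibitor of translation, changed by -3.49 ± 0.60 (edgeR adjusted p = 0.00544) and shares exons with a neighbouring gene, so its counts are less certain. Of 33 genes of retinoid, metallothionein and iron handling 4 were lower and 2 higher (median 0.06), beside 7.5% lower and 11.5% higher over all genes tested. Alas1, which starts haem synthesis, had 797, 949 and 904 CPM in the HFCF livers, against 430.0, 423 and 314 CPM in the chow livers (1.18 ± 0.18, adjusted p = 0.00113), and Cyp26b1, which degrades retinoic acid, was lower (-1.85 ± 0.37, adjusted p = 0.00641). The number lower was 1 without HFCF replicate 1 or HFCF replicate 2 and 2 without chow replicate 1 or chow replicate 3, and the number higher 4 without HFCF replicate 3. Of 26 genes of secreted liver factors 5 were higher and 5 lower (median 0.33). Lect2 had 128, 123 and 114 CPM in the HFCF livers, against 58.5, 49.7 and 53.3 CPM in the chow livers (1.18 ± 0.15, adjusted p = 0.000435), Enho, which encodes adropin, had 1.78, 1.05 and 2.62 CPM in the HFCF livers, against 29.9, 26.1 and 22.1 CPM in the chow livers (-3.90 ± 0.38, adjusted p = 0.000318), and Fgf21 did not pass (1.02 ± 0.47, adjusted p = 0.156). The number higher was 3 without chow replicate 2 or chow replicate 3, and the number lower 2 without HFCF replicate 1 or HFCF replicate 2 and 3 without chow replicate 2.

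Interferon-stimulated genes, which act against viruses, rose in all 3 HFCF livers to a like extent by the list's median. Of 32 measured 19 were higher and none lower, with a median of 0.96. Bst2, which tethers budding virus, had 108, 110.0 and 98.6 CPM in the HFCF livers, against 53.2, 43.1 and 59.6 CPM in the chow livers (1.02 ± 0.15, adjusted p = 0.000862). Oas1a, a sensor of double-stranded RNA, had 5.61, 5.67 and 3.65 CPM in the HFCF livers, against 1.67, 1.44 and 1.35 CPM in the chow livers (1.74 ± 0.30, adjusted p = 0.00198). Ifit2 had 18.2, 23.6 and 15.0 CPM in the HFCF livers, against 5.71, 4.97 and 5.99 CPM in the chow livers (1.77 ± 0.28, adjusted p = 0.00178), and Oasl2 changed by 1.22 ± 0.20 (edgeR adjusted p = 0.00163). No HFCF liver overlapped the chow livers in these 4 genes. Ifitm3 (0.27 ± 0.12, adjusted p = 0.136) and Parp9 (0.31 ± 0.12, adjusted p = 0.0866) did not pass, and Ifitm3 passed without HFCF replicate 3. The list lay at 0.90, 1.06 and 0.89 in HFCF replicates 1, 2 and 3, against 0.11, 0.04 and -0.13 in chow, and at 1 month 2 of the 32 were higher (median 0.62).

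The promoters of Bst2 and Oas1a are shown because members of this list moved together and these windows hold the letters searched, while those of Ifit2 and Oasl2 do not. Windows of 250 bases before to 50 after the start were taken from RefSeq on build GRCm38.p6, and GAAANNGAA, the core of the element bound by interferon-activated factors, was searched on both strands, where it reads TTCNNTTTC on the other. It was found in 14 of the 22 tested list members that had a window (63.6%) and in 9.76% of 27025 genes with a window. Among the 15 members with a window that were higher in HFCF, 11 held it. Both windows below lie on the minus strand and are written 5′ to 3′ in the direction of the gene, with matches in capitals, and in each window 2 matches overlap. A match is a description of letters and not a site.
Bst2, chr8:71537423-71537722: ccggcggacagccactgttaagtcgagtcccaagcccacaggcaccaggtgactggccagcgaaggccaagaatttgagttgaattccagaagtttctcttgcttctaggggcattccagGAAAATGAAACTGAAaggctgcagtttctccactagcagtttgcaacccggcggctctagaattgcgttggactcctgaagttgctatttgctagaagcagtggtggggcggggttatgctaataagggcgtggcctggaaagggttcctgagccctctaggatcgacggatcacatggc
Oas1a, chr5:120907476-120907775: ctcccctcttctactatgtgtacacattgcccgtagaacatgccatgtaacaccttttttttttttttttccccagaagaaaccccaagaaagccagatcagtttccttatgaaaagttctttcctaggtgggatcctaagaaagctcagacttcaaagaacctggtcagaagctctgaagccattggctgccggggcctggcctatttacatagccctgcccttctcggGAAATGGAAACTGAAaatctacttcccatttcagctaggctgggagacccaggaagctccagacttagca

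Genes of antigen presentation and the response to interferon-gamma rose as well. Of 30 measured 16 were higher and none lower (median 0.65), and the count was 10 without chow replicate 2. Ciita, the master regulator of class II molecules, had 9.35, 7.94 and 5.58 CPM in the HFCF livers, against 3.39, 1.96 and 1.95 CPM in the chow livers (1.63 ± 0.25, adjusted p = 0.00113). H2-DMb1, which helps to load class II molecules, had 11.8, 9.77 and 5.45 CPM in the HFCF livers, against 2.96, 1.90 and 2.10 CPM in the chow livers (1.95 ± 0.32, adjusted p = 0.0019), and Cd86, a costimulator, changed by 1.66 ± 0.28 (edgeR adjusted p = 0.00198). The abundant class I genes B2m (0.36 ± 0.14, adjusted p = 0.0863) and H2-K1 (0.21 ± 0.13, adjusted p = 0.272) did not pass. The list lay at 0.63, 0.63 and 0.69 in HFCF replicates 1, 2 and 3, against 0.25, -0.02 and -0.18 in chow.

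Chemokine and cytokine genes rose, with 22 of 34 higher, 2 lower and a median of 1.18. Ccr2, the receptor that brings monocytes into tissue, had 21.2, 20.4 and 11.5 CPM in the HFCF livers, against 2.21, 1.70 and 1.499 CPM in the chow livers (3.28 ± 0.39, adjusted p = 0.000522). Its ligand gene Ccl2 had 7.43, 7.72 and 2.27 CPM in the HFCF livers, against 0.323, 0.196 and 0.150 CPM in the chow livers (4.63 ± 0.71, adjusted p = 0.00167). In both genes replicate 3 lay below the other HFCF livers and well above chow. Cx3cr1, a monocyte receptor, changed by 3.40 ± 0.44 (edgeR adjusted p = 0.000534). Cxcl1, which draws neutrophils, had 11.7, 12.0 and 13.1 CPM in the HFCF livers, against 5.87, 3.40 and 4.50 CPM in the chow livers (1.40 ± 0.20, adjusted p = 0.000774), with no lower value in replicate 3. Tnf, at low level, was higher (2.88 ± 0.62, adjusted p = 0.00689), and Il1b did not pass (1.18 ± 0.51, adjusted p = 0.129). The lower members were Cxcl13 (-3.16 ± 0.61, adjusted p = 0.00442) and Cxcl12 (-0.48 ± 0.16, adjusted p = 0.0479), the second of which was lost without HFCF replicate 1, HFCF replicate 2, chow replicate 1, chow replicate 2 or chow replicate 3. The number higher was 13 without HFCF replicate 1.

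Of 35 genes of Toll receptors, NF-kB and the inflammasome 15 were higher and none lower (median 0.74). Tlr2 had 9.35, 9.86 and 6.07 CPM in the HFCF livers, against 3.82, 2.81 and 2.25 CPM in the chow livers (1.50 ± 0.25, adjusted p = 0.00161). Tnfaip3, a brake on NF-kB, had 14.6, 14.4 and 7.65 CPM in the HFCF livers, against 4.79, 5.95 and 3.60 CPM in the chow livers (1.36 ± 0.23, adjusted p = 0.00201), and Relb, a subunit of the factor, changed by 1.58 ± 0.28 (edgeR adjusted p = 0.00252). Replicate 3 was the lowest HFCF liver in the 3 genes that rose and did not overlap chow. The count was 8 without HFCF replicate 1 or HFCF replicate 2, 6 without chow replicate 2 and 9 without chow replicate 3.

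Leukocyte genes rose broadly. Of 34 leukocyte and phagocyte genes 28 were higher and none lower, with a median of 1.27, and 23 to 32 were higher without any 1 library. Cd52 had 16.9, 14.9 and 8.07 CPM in the HFCF livers, against 3.29, 3.20 and 3.30 CPM in the chow livers (2.03 ± 0.26, adjusted p = 0.000472). Coro1a, an actin regulator of leukocytes, had 19.8, 19.3 and 9.72 CPM in the HFCF livers, against 4.79, 4.25 and 3.60 CPM in the chow livers (1.95 ± 0.26, adjusted p = 0.000639). Replicate 3 lay about midway, on a log scale, between the other HFCF livers and chow in both genes. Fcgr1, a macrophage receptor for antibodies, changed by 1.91 ± 0.26 (edgeR adjusted p = 0.000571). Laptm5, of leukocyte lysosomes, did not pass (0.77 ± 0.32, adjusted p = 0.122) and passed without HFCF replicate 3. The summed level of the 34 was 665, 621 and 436 CPM in HFCF replicates 1, 2 and 3, against 350.3, 296 and 288 in chow, and the part of the number of leukocytes in the inflammatory lists was not tested.

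Markers of lipid-associated macrophages, a state described in fatty tissue, rose in 18 of 23 and fell in 1 (median 1.57). This list shares members with others, among them Plin2 and Lpl with the lipid droplet list. Lipa is also in the cholesterol handling and lysosome lists, and Spp1 in the chemokine and bile duct lists. Mmp12, the macrophage elastase, had 71.6, 67.1 and 6.14 CPM in the HFCF livers, against 0.646, 0.719 and 0.599 CPM in the chow livers (6.19 ± 0.95, adjusted p = 0.0035). Lyz2, lysozyme, had 199.7, 184 and 107 CPM in the HFCF livers, against 62.6, 47.7 and 45.6 CPM in the chow livers (1.65 ± 0.25, adjusted p = 0.00198). Msr1, a scavenger receptor, had 43.9, 43.5 and 31.7 CPM in the HFCF livers, against 17.1, 16.0 and 16.0 CPM in the chow livers (1.28 ± 0.17, adjusted p = 0.000544). Trem2, a lipid receptor of these cells, had 11.5, 12.0 and 1.45 CPM in the HFCF livers, against 1.40, 0.588 and 1.05 CPM in the chow livers (3.03 ± 0.67, adjusted p = 0.0123). In Mmp12 replicate 3 was far below the other HFCF livers and above every chow liver, and in Trem2 it was next to the highest chow liver. The Trem2 call was lost without chow replicate 2. The lower member was the protease Ctsl (-0.79 ± 0.17, adjusted p = 0.00742). The list lay at 1.96, 1.84 and 0.59 in HFCF replicates 1, 2 and 3.

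Markers of resident Kupffer cells, the macrophages of the liver sinusoids, were mixed, with 6 of 20 higher and 1 lower (median 0.36). Cd163, a scavenger receptor for haemoglobin, had 11.4, 9.73 and 14.6 CPM in the HFCF livers, against 46.5, 35.6 and 37.4 CPM in the chow livers (-1.75 ± 0.22, adjusted p = 0.000699), lower in all 3 HFCF livers. Cd5l, a secreted lipid regulator, had 285, 268 and 188 CPM in the HFCF livers, against 121, 76.7 and 86.2 CPM in the chow livers (1.38 ± 0.35, adjusted p = 0.0219), and Id3, a factor of Kupffer cell identity, had 35.3, 33.8 and 32.3 CPM in the HFCF livers, against 17.6, 15.7 and 13.3 CPM in the chow livers (1.12 ± 0.15, adjusted p = 0.000608). Clec4f, a lectin of these cells, had 145, 118 and 129.6 CPM in the HFCF livers, against 107, 79.3 and 86.3 CPM in the chow livers and did not pass (0.53 ± 0.23, adjusted p = 0.127). The Cd5l call was lost without HFCF replicate 1, HFCF replicate 2, chow replicate 2 or chow replicate 3, that of the macrophage marker Adgre1 (1.08 ± 0.31, adjusted p = 0.0371) without HFCF replicate 1, HFCF replicate 2, chow replicate 2 or chow replicate 3 and that of Cd68 (1.57 ± 0.39, adjusted p = 0.0195) without HFCF replicate 1, HFCF replicate 2, chow replicate 2 or chow replicate 3. The numbers higher were 1 without HFCF replicate 1 and 2 without HFCF replicate 2, chow replicate 2 or chow replicate 3, and 2 were lower without chow replicate 1.

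Of 34 markers of T, NK and B cells and neutrophils 14 were tested and 5 were higher, none lower (median 0.96). The list lay at 1.74, 0.42 and 0.08 in HFCF replicates 1, 2 and 3, against 0.29, -0.15 and -0.29 in chow. Replicate 3 was thus within the range of chow. The T cell markers Cd3e, Cd3d, Cd3g, Cd2 and Cd8a were among those not tested. Themis, a T cell signalling gene, had 61.5, 65.7 and 39.6 CPM in the HFCF livers, against 1.72, 1.57 and 3.67 CPM in the chow livers (4.62 ± 0.80, adjusted p = 0.00598). The B cell gene Cd79b (1.57 ± 0.42, adjusted p = 0.0195) and the neutrophil genes S100a8 (1.63 ± 0.47, adjusted p = 0.0264) and S100a9 (1.50 ± 0.45, adjusted p = 0.0316) were also higher, at about 1 CPM, and each was lost without HFCF replicate 1, HFCF replicate 2 or chow replicate 3, both neutrophil genes also without chow replicate 2 and Cd79b also without chow replicate 1. The count was 1 without HFCF replicate 1, HFCF replicate 2 or chow replicate 3, 3 without chow replicate 1 and 2 without chow replicate 2. Of 44 lysosome genes 14 were higher and 1 lower (median 0.16), among them Lipa, the acid lipase, with 394, 433 and 356 CPM in the HFCF livers, against 204, 253 and 267 CPM in the chow livers (0.71 ± 0.13, adjusted p = 0.00275). That count was 9 without HFCF replicate 1 and 8 without HFCF replicate 2 or chow replicate 2. Markers of muscle, pancreas and red blood cells, of which 8 of 19 were tested, had 1 higher, Cela1 (0.63 ± 0.14, adjusted p = 0.007), and none lower (median 0.26), or 2 without chow replicate 3.

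**Figure D3:**
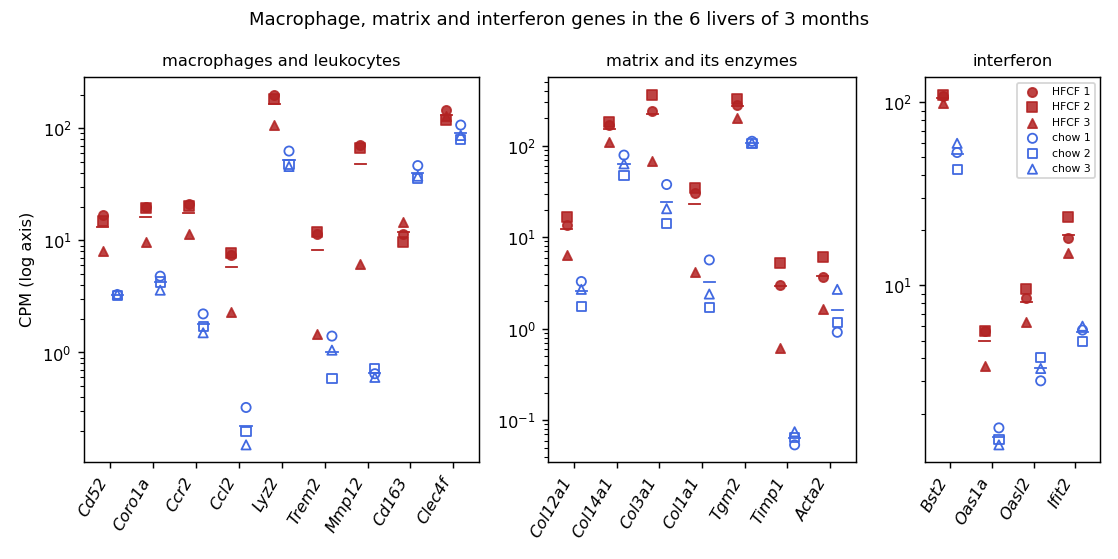
CPM (log axis) of macrophage, matrix and interferon genes in each liver of 3 months: filled red symbols are HFCF livers, open blue symbols chow livers, the symbol shape gives the replicate number, and lines are group means. HFCF replicate 3 (triangle) lies near chow in Trem2 and Col1a1 and with the other HFCF livers in Bst2 and Cd163.

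Collagen genes rose in part, unevenly over the HFCF livers. Of 25 measured 9 were higher and none lower, with a median of 0.97. Col12a1, which binds the surface of fibrils, had 13.6, 16.5 and 6.48 CPM in the HFCF livers, against 3.29, 1.76 and 2.70 CPM in the chow livers (2.24 ± 0.33, adjusted p = 0.00118). Col14a1, a related collagen, had 170.0, 181 and 109 CPM in the HFCF livers, against 79.1, 47.5 and 63.5 CPM in the chow livers (1.28 ± 0.21, adjusted p = 0.00265). Col3a1, a chain of fibrils, had 239, 362 and 69.0 CPM in the HFCF livers, against 37.8, 14.1 and 20.5 CPM in the chow livers (3.21 ± 0.71, adjusted p = 0.0168). The groups did not overlap in these 3 genes, and the Col3a1 call was lost without HFCF replicate 2, chow replicate 2 or chow replicate 3. The main fibril chains Col1a1 and Col1a2 did not pass. Col1a1 had 30.1, 34.2 and 4.21 CPM in the HFCF livers, against 5.66, 1.70 and 2.40 CPM in the chow livers (2.79 ± 0.99, adjusted p = 0.0845), with replicate 3 within the range of chow. Col1a2 had 57.9, 81.5 and 16.7 CPM in the HFCF livers, against 16.7, 10.1 and 11.8 CPM in the chow livers (2.02 ± 0.63, adjusted p = 0.0562), with replicate 3 level with the highest chow liver. Both passed without HFCF replicate 3. The count was 3 without HFCF replicate 1, 2 without HFCF replicate 2 or chow replicate 2, 15 without HFCF replicate 3 and 4 without chow replicate 3.

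Matrix glycoproteins (12 of 37 higher, 1 lower, median 0.71) and matrix enzymes (17 of 37 higher, none lower, median 1.05) followed. Tgm2, which crosslinks proteins, had 283, 325 and 199.99 CPM in the HFCF livers, against 112, 105 and 107 CPM in the chow livers (1.31 ± 0.14, adjusted p = 0.000199). Adamts9, a protease of proteoglycans, changed by 1.94 ± 0.32 (edgeR adjusted p = 0.00196). Timp1, the inhibitor of matrix proteases, had 65, 119 and 9 counts in the HFCF livers, against 1, 1 and 1 in the chow livers (edgeR adjusted p = 0.00198), and it had no test without HFCF replicate 1 or 2. Igfbp7 (1.02 ± 0.16, adjusted p = 0.00168), Emilin1 (0.81 ± 0.14, adjusted p = 0.00184) and Tnc, tenascin C (3.22 ± 0.58, adjusted p = 0.00476), were higher, and Ecm1 was lower (-0.60 ± 0.16, adjusted p = 0.0183) unless HFCF replicate 2 or chow replicate 2 was left out. Fn1, fibronectin, which hepatocytes also make, did not pass (-0.34 ± 0.18, adjusted p = 0.193). The numbers of glycoproteins higher were 6 without HFCF replicate 2, 22 without HFCF replicate 3 and 5 without chow replicate 2, and those of enzymes 7 without HFCF replicate 1 or chow replicate 2, 6 without HFCF replicate 2 and 9 without chow replicate 3.

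Of 24 stellate cell markers 7 were higher and 2 lower (median 0.69). Steap4, a metalloreductase, had 243, 252 and 139.6 CPM in the HFCF livers, against 91.0, 63.7 and 67.3 CPM in the chow livers (1.52 ± 0.22, adjusted p = 0.00155), and Ngfr, a receptor of stellate cells, was higher (1.28 ± 0.26, adjusted p = 0.00457). Acta2, the actin of activated stellate cells, had 3.69, 6.06 and 1.65 CPM in the HFCF livers, against 0.916, 1.18 and 2.70 CPM in the chow livers, the groups overlapped, and it did not pass (1.32 ± 1.04, adjusted p = 0.41). The number of stellate markers higher was 4 without HFCF replicate 1, HFCF replicate 2, chow replicate 2 or chow replicate 3, and the number lower 1 without HFCF replicate 1, chow replicate 1 or chow replicate 3 and 0 without HFCF replicate 2 or chow replicate 2. In the TGF-beta and BMP list 9 of 35 were higher and 3 lower (median 0.33). Tgfb1 itself did not pass (-0.06 ± 0.32, adjusted p = 0.915), Tgfbi, a matrix gene named for its response to it, was higher (0.88 ± 0.14, adjusted p = 0.00119), and Bmp2, a signal of liver endothelium to hepatocytes in iron control, had 12.2, 10.9 and 9.38 CPM in the HFCF livers, against 21.2, 23.7 and 24.5 CPM in the chow livers (-1.08 ± 0.13, adjusted p = 0.00038). The number higher was 5 without HFCF replicate 2 or chow replicate 3 and 4 without chow replicate 2.

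Of 31 endothelial genes 4 were higher and 3 lower (median 0.09), beside 11.5% higher and 7.5% lower over all genes tested. The number higher was 2 without HFCF replicate 1, HFCF replicate 2 or chow replicate 2 and 7 without HFCF replicate 3. The number lower was 1 without HFCF replicate 2 or chow replicate 2. Stab2, a scavenger receptor of the sinusoids, did not pass (0.06 ± 0.10, adjusted p = 0.705). Bile duct and ductular genes were higher in 7 of 17 and lower in none (median 1.09). Spp1, osteopontin, which macrophages also make, had 207, 214 and 56.2 CPM in the HFCF livers, against 37.0, 25.5 and 30.9 CPM in the chow livers (2.35 ± 0.43, adjusted p = 0.00664), and Krt8, a keratin shared with hepatocytes, had 242, 359 and 136 CPM in the HFCF livers, against 98.0, 97.0 and 94.8 CPM in the chow livers (1.35 ± 0.27, adjusted p = 0.00734). In both, replicate 3 was the lowest HFCF liver and above every chow liver.

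Genes of the cytoskeleton, annexins and S100 proteins were higher in 24 of 38 and lower in 1 (median 1.05). Tmsb4x, which binds actin monomers, had 163, 154 and 97.0 CPM in the HFCF livers, against 54.0, 41.5 and 42.4 CPM in the chow livers (1.59 ± 0.22, adjusted p = 0.00106). Anxa2, a membrane-binding annexin, had 98.7, 153 and 35.4 CPM in the HFCF livers, against 10.7, 7.58 and 9.07 CPM in the chow livers (3.40 ± 0.52, adjusted p = 0.0032). The lower member, Tuba8 (-1.66 ± 0.50, adjusted p = 0.0386), was lost without HFCF replicate 1, HFCF replicate 2, HFCF replicate 3, chow replicate 1 or chow replicate 2. The count was 14 without HFCF replicate 2 and 15 without chow replicate 3. Of 14 genes of the fetal and stressed liver 9 were higher and none lower (median 0.90), among them Ly6d (5.57 ± 0.99, adjusted p = 0.00666), Lgals1 (3.20 ± 0.44, adjusted p = 0.0019) and Sulf2, a sulfatase of heparan sulfate (1.02 ± 0.11, adjusted p = 0.000218), while Afp, alpha-fetoprotein, did not pass (0.27 ± 0.32, adjusted p = 0.594). That count was 4 without HFCF replicate 1 or chow replicate 2 and 5 without HFCF replicate 2 or chow replicate 3.

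Genes of cell division rose, at low levels. Of 34 measured 19 were higher and none lower, with a median of 0.90, and 14 to 20 were higher without any 1 library. Racgap1, needed for the last step of division, had 2.34, 1.96 and 1.24 CPM in the HFCF livers, against 0.162, 0.261 and 0.150 CPM in the chow livers (3.25 ± 0.45, adjusted p = 0.000689). Cdc20, which activates the anaphase complex, had 2.24, 2.53 and 0.896 CPM in the HFCF livers, against 0.108, 0.0654 and 0.225 CPM in the chow livers (3.84 ± 0.54, adjusted p = 0.000703). Cenpf, a kinetochore gene, had 2.20, 3.40 and 1.59 CPM in the HFCF livers, against 0.377, 0.131 and 0.150 CPM in the chow livers (3.36 ± 0.48, adjusted p = 0.00084). All HFCF livers exceeded all chow livers in the 3 genes, in each case with replicate 3 the lowest of them. The replication genes Pcna (0.25 ± 0.11, adjusted p = 0.136) and Tk1 (-0.34 ± 0.31, adjusted p = 0.486) did not pass. In the list of p53 targets, cyclins and cell death genes 14 of 42 were higher and 1 was lower (median 0.31). Ccnd1, a cyclin of cell cycle entry, had 66.2, 59.2 and 37.9 CPM in the HFCF livers, against 12.2, 16.2 and 10.1 CPM in the chow livers (2.08 ± 0.22, adjusted p = 0.000274), and its relative Ccnd3 had 16.2, 17.7 and 16.7 CPM in the HFCF livers, against 24.5, 26.3 and 25.8 CPM in the chow livers (-0.60 ± 0.09, adjusted p = 0.00106). Gadd45a was higher (1.93 ± 0.31, adjusted p = 0.00161) and Cdkn1a did not pass (-0.77 ± 0.68, adjusted p = 0.468). The number higher was 9 without HFCF replicate 1 or HFCF replicate 2 and 8 without chow replicate 2.

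The promoters of Racgap1 and Cdc20 are shown as the 2 of this list with the smallest p, both of which hold the motifs searched. The letters TTTGAA, or in the other direction TTCAAA, form the cell cycle homology region, which was found in 13 of 29 tested members with a RefSeq window (44.8%) and in 20.2% of all genes with one. The CCAAT box, or in the other direction ATTGG, was found in 22 of the 29 (75.9%) and in 41.1% of all. Of the 17 members with a window that were higher in HFCF, 11 held TTTGAA and 15 held CCAAT. Both windows are written 5′ to 3′ along the minus strand, with matches to either motif in capitals, and no match overlaps another.
Racgap1, chr15:99651607-99651906: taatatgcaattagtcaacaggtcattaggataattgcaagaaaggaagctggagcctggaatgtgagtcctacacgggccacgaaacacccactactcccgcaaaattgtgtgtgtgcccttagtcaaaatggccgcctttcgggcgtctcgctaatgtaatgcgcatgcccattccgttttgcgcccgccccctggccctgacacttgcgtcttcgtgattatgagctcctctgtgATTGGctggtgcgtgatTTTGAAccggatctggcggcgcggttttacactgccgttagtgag
Cdc20, chr4:118437294-118437593: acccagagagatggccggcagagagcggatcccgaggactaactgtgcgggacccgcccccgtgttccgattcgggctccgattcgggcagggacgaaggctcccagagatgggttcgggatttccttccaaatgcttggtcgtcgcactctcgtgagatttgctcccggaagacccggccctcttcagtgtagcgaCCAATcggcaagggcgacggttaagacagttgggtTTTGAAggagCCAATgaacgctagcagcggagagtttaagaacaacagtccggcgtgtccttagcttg
In each window a CCAAT match, read on the other strand as ATTGG in Racgap1, lies before TTTGAA. Letters of 3 other elements were searched in the same way. GAGGAAGT, a core of sites of the leukocyte factor PU.1, was in 6 of 25 members of the leukocyte list (24%) and 3.69% of all genes, AGGNCAAAG in 1 of 25 members of the fatty acid oxidation list (4%) and 2.35% of all, and TCACNCCAC in 0 of 16 members of the sterol list and 1.44% of all. The absence of these letters from a window draws nothing about the factor.

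The lists differed in how far replicate 3 followed the other HFCF livers. Medians relative to chow in HFCF replicates 1, 2 and 3 were 1.26, 1.49 and 0.26 for matrix enzymes, 0.83, 1.09 and 0.20 for matrix glycoproteins, 1.17, 1.17 and 0.37 for collagens and 1.25, 1.32 and 0.37 for the cytoskeleton list. In these lists chow replicate 1 was the highest chow liver, at 0.22, 0.25, 0.21 and 0.17 in the same order. For matrix glycoproteins it lay above HFCF replicate 3. For leukocyte genes the HFCF medians were 1.57, 1.42 and 0.69, and for chemokines and cytokines 1.62, 1.52 and 0.73. Those of sterol, interferon, antigen presentation and lipid droplet genes, given above, were about level or differed by less. With 1 liver of this kind the difference has no replicate and no test. The library held the fewest counts of the 3 HFCF livers, and the chow liver with the fewest held fewer still.

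**Figure D4:**
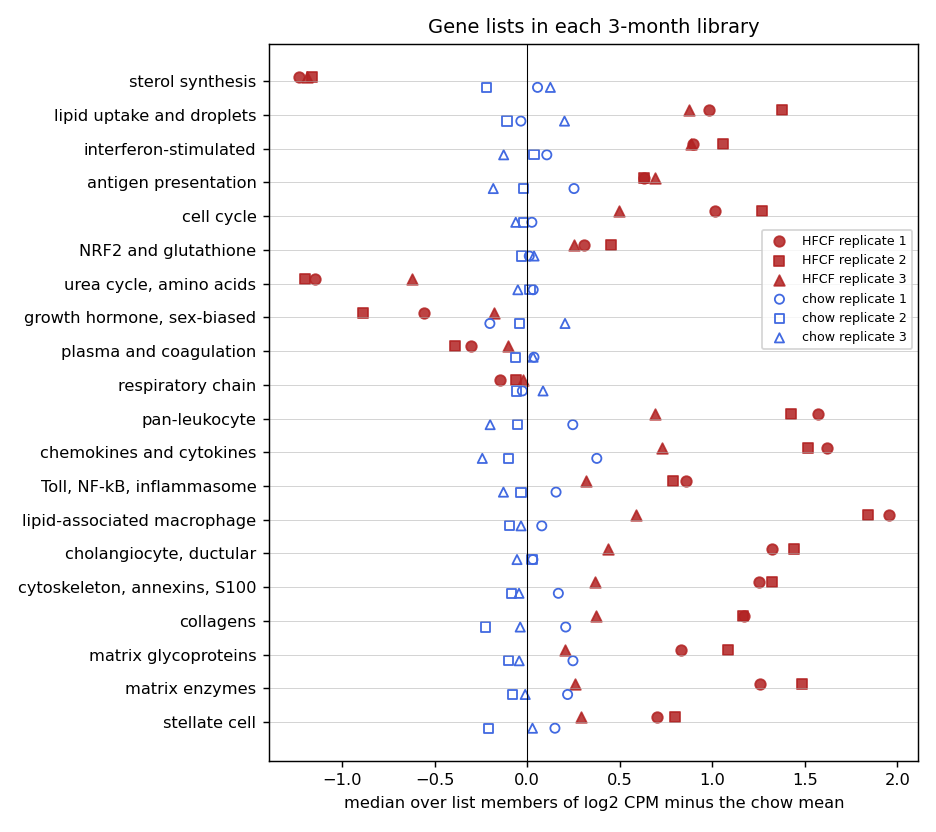
Median over the tested members of each gene list of log2 CPM minus the chow mean (horizontal), in each 3-month liver; filled red symbols are HFCF livers, open blue symbols chow livers, and the shape gives the replicate number. HFCF replicate 3 (triangle) lies with the other HFCF livers in the sterol, interferon and antigen presentation lists and nearer to chow in the macrophage, cytoskeleton and matrix lists.

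The effect of the diet was compared with that after 1 month, in mice 3 months old, and therefore feeding time and age cannot be told apart. At 1 month 301 genes passed, of which 181 also passed at 3 months, 178 of them in the same direction. These were 60.1% of the calls at 1 month and 6.46% of those at 3 months. The difference between the effects, 3 months minus 1 month, passed for 6 of 14725 genes (0.0407%), and 2298 had an unadjusted p under 0.05. The count was 367 with DESeq2, 48 with the replicate number as a block and 0 with scaling by total counts. None passed without HFCF replicate 1, HFCF replicate 2, chow replicate 2 or chow replicate 3 of 3 months, or without HFCF replicate 3, chow replicate 2 or chow replicate 3 of 1 month. The count was 881 without HFCF replicate 3 of 3 months, 59 without HFCF replicate 2 of 1 month, 3 without chow replicate 1 of 3 months, 2 without HFCF replicate 1 of 1 month and 1 without chow replicate 1 of 1 month. Of the lists above, the NRF2, Toll and cyclin lists held 1 such gene each.

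The 6 genes were Gstm6, Nes, Tnfaip3, Ccnd3, Dact2 and Peg3. Tnfaip3 changed by 1.36 ± 0.23 at 3 months and -0.81 ± 0.25 at 1 month, a difference of 2.17 ± 0.34 (edgeR adjusted p = 0.0465). Nes, which encodes the filament protein nestin, changed by 1.56 ± 0.20 at 3 months and -0.33 ± 0.22 at 1 month, a difference of 1.89 ± 0.30 (edgeR adjusted p = 0.0465). Gstm6, a glutathione transferase of a family of similar copies, changed by 0.45 ± 0.15 at 3 months and -0.94 ± 0.15 at 1 month, a difference of 1.39 ± 0.21 (edgeR adjusted p = 0.042). All 3 passed as higher at 3 months, and of the values at 1 month that of Gstm6 passed (edgeR adjusted p = 0.00814), while those of Tnfaip3 (adjusted p = 0.117) and Nes (adjusted p = 0.512) did not. Lower at 3 months than at 1 month were the effects on Ccnd3 (-0.87 ± 0.13, edgeR adjusted p = 0.042), on Dact2, an inhibitor of developmental signals (-1.19 ± 0.17, edgeR adjusted p = 0.042), and on Peg3, an imprinted zinc finger gene (-1.61 ± 0.24, edgeR adjusted p = 0.042). Near the threshold lay Casp12, an inflammatory caspase gene (1.54 ± 0.27, edgeR adjusted p = 0.0607), Adora1, an adenosine receptor (1.44 ± 0.24, edgeR adjusted p = 0.0607), Etnk2, an ethanolamine kinase (-1.37 ± 0.22, edgeR adjusted p = 0.0514), and Tmem266, a membrane protein gene (-2.81 ± 0.46, edgeR adjusted p = 0.0545). Several lists had medians of opposite sign in the months, without a test of that difference. The median was 1.09 at 3 months and -0.33 at 1 month for the bile duct list, 1.05 and -0.24 for matrix enzymes, 0.97 and -0.18 for collagens, 0.71 and -0.23 for matrix glycoproteins and 0.69 and -0.06 for stellate markers. No member of these 5 lists passed for the difference.

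Counts are also less certain for genes named above whose exons overlap another annotated gene, among them Cd52, Ciita, Coro1a, Mmp12, Cdc20, Ccnd1, Ccnd3, Enho, Sulf2, Tgm2, Igfbp7, Sds, Pfkfb1 and Acss2 (opposite strand) and Col3a1, Pkm, Apoc2, Spp1 and Ctsl (same strand). Coordinates are those deposited for mm10, counted from 1. Asl (ENSMUSG00000025533) spans chromosome 5 from 130011258 to 130025132. Cps1 (ENSMUSG00000025991) spans chromosome 1 from 67123026 to 67231259. Msmo1 (ENSMUSG00000031604) spans chromosome 8 from 64718139 to 64733792. The desaturase gene Scd1 (ENSMUSG00000037071) is located on chromosome 19 from 44394451 to 44407709. Gstp1 (ENSMUSG00000060803) lies on chromosome 19 from 4035411 to 4037921, and Cd163 (ENSMUSG00000008845) lies on chromosome 6 from 124304651 to 124330527. Tnfaip3 (ENSMUSG00000019850) spans chromosome 10 from 19000910 to 19015657.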

How the data were processed

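RNA-seq libraries of 12 mouse livers, 3 in each of 4 groups, were analysed, of which 6 belong to the comparison at 3 months. Total RNA was depleted of ribosomal RNA, and stranded libraries were made, per the labels' protocols. The authors deposited raw counts per gene and FPKM, which the values show to be those counts scaled by gene length and 1 total per sample; the build is mm10 per the submitters' processing notes. Aligner, counter and counting strand: not given in the sources used here. Therefore genes that overlap on either strand, and near-identical copies, are uncertain. The deposited FPKM served only to compare levels between genes.

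Of 16035 genes listed, 15306 identifiers matched GENCODE M21, and 14725 passed the filterByExpr function of edgeR 4.0.16 (R 4.3.3), which removed 1310. Counts were scaled by TMM, with factors from 0.9205 to 1.144, and 1 robust quasi-likelihood fit of the 4 group means over 12 libraries gave HFCF minus chow at 3 months and its difference from the same effect at 1 month. P-values set the difference between group means against a spread estimated from all 12 libraries, those of 1 month included. The common biological coefficient of variation was 0.153. Within-group pairs of libraries differed beyond sampling noise, with 13.99 to 43.47 as the mean chi-square per gene, so none was counted as a duplicate. On simulated counts with 100 genes changed 2-fold and 100 changed 4-fold, the test of 3 months recovered 76% and 98%, with 11 false among 185 calls over 14460 genes. That of the difference recovered 47% and 87%, with 5 false among 139 calls over 14467 genes. In the measured livers 2802 genes passed at 3 months, far more than the simulation altered, and HFCF replicate 3 lay nearer to chow. The simulated rates therefore cannot be taken as the recovery or the false calls of these tests on the measured data.

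The 44 gene lists and the genes named were chosen with earlier results of these data known. Some genes are in more than 1 list, so the counts of different lists are not independent. Named were the 8 largest rises and 8 largest falls that averaged 20 CPM or more without overlap of the groups, up to 4 list members with the smallest p in the direction most called members moved, up to 3 in the other direction, up to 2 of the highest level that did not pass, the 10 of highest mean FPKM, the 5 smallest p each way for the difference, and a set of well-known genes. Not every gene that this rule gives is printed. Median list values use log2 CPM with a prior count of 0.5. Replicate numbers were not used to pair the samples in the main fit, and the check described with the alternatives cannot settle whether they do. Alternatives were another scaling (DESeq2 1.42.0 size factors, total counts), other filters, DESeq2, limma-voom (limma 3.58.1), the replicate number as a block, no robust estimation, only the 6 libraries, a 2-fold minimum and each library left out. Promoter windows came from RefSeq on GRCm38.p6.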

Additional observations from a re-analysis of the deposited data

Results flagged for a closer look

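The effect of the diet differed between 3 months and 1 month for 6 genes by the test of the difference itself, fitted in edgeR with p-values adjusted over all genes. The differences, 3 months minus 1 month on the log2 scale, were 2.17 for Tnfaip3, 1.89 for Nes, 1.39 for Gstm6, -0.868 for Ccnd3, -1.19 for Dact2 and -1.61 for Peg3. In CPM, Nes had 6.55, 7.68 and 5.52 CPM in the HFCF livers, against 2.15, 1.96 and 2.62 CPM in the chow livers of 3 months. Peg3 had 12.3, 11.3 and 11.8 CPM in the HFCF livers, against 31.7, 42.8 and 38.8 CPM in the chow livers of 3 months, and Dact2 had 9.96, 9.03 and 12.6 CPM in the HFCF livers, against 18.6, 17.2 and 19.1 CPM in the chow livers of 3 months. The count of 6 was 367 with DESeq2, 48 with the replicate number as a block and 0 with scaling by total counts. None of the 6 passed without HFCF replicate 1, HFCF replicate 2, chow replicate 2 or chow replicate 3 of 3 months, and feeding time and age cannot be told apart.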

How the results depend on the processing

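The count of 2802 genes at 3 months was 2552 to 3089 with DESeq2 size factors, total counts, no filter, a mean of at least 1 CPM, DESeq2, limma-voom, no robust estimation or only the 6 libraries, and 2624 with the replicate number as a block. The labels name no pairing of the samples. Deviations of HFCF and chow livers of one number from their group means correlated at 0.147, -0.0645 and 0.150. HFCF replicates 1, 2 and 3 correlated best with chow replicates 1, 1 and 3. Deviations within so few libraries are not independent, so these values cannot show whether the samples were paired. With total counts 575 genes were lower. With a fold change of at least 2 the count was 1016, with 797 higher and 219 lower. Leaving out 1 library gave 1255 to 3633 calls, 820 to 2186 higher and 435 to 1447 lower. Without HFCF replicate 3 and chow replicate 1 of 1 month, an alternative chosen after seeing the data, 3910 passed, 2366 higher and 1544 lower.

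The 6 calls for the difference between the months became 0 with total counts, 367 with DESeq2 (207 higher, 160 lower), 3 with limma-voom (1 higher) and 48 with the replicate block (25 higher, 23 lower). With the 1 CPM filter 1 was higher, and 6 were lower without robust estimation. Leaving out 1 library gave 0 to 881, 0 to 574 higher and 0 to 307 lower, and leaving out HFCF replicate 3 of 3 months with chow replicate 1 of 1 month gave 635 (376 higher, 259 lower). The cause was not tested.

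Of single genes, 2 that had not passed changed sign. With total counts the log2 fold change was 0.0835 for Tgfb1 and 0.0218 for Cd4, and leaving out 1 library gave -0.29 to 0.19 for Tgfb1. Without HFCF replicate 3 and chow replicate 1 of 1 month it was 0.191 for Tgfb1. Of 328 genes that the rule or the text names 223 passed, 159 of them without each of the 6 libraries in turn. Of 176 genes in the text the replicate block took 6 below the threshold, took 2 past it and turned none. The library with the fewest counts held 13733485, which limits genes of a few counts such as Timp1 and Slc7a11.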

Other observations

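Among the tested markers of T, NK and B cells and neutrophils Themis changed most, with 55.6 ± 14.0 CPM in HFCF and 2.32 ± 1.17 CPM in chow livers (SD, n = 3 each). Cd4, a T cell and macrophage gene chosen after its values were seen, had 0.701, 0.785 and 0.896 CPM in the HFCF livers, against 0.808, 0.850 and 0.899 CPM in the chow livers and did not pass (edgeR, -0.11 ± 0.29, adjusted p = 0.831). Of 451 annotated antisense genes 15 were higher and 35 lower, and of 12768 protein-coding genes 1627 were higher and 986 lower. Because the strand counted is not given, reads of an antisense gene and of its partner cannot be told apart.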
